A study of Mus musculus with 19 samples.

Results

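Omp encodes olfactory marker protein (OMP), a small cytoplasmic protein that is abundant in mature chemosensory neurons and serves as the standard marker of their maturity. The gene also carries the Cre recombinase of the OMPCre mouse line, so that animals with 1 OMPCre allele have 1 intact Omp copy. Omp was taken by its symbol as 1 of the 35596 genes measured. The data are 18 mRNA-seq libraries from whole vomeronasal organs (VNOs) of female mice at postnatal day 21, with 3 libraries in each of 6 groups. In the OMP line, OMP Het libraries came from OMPCre+/− mice, OMP cKO libraries from OMPCre+/− mice with floxed Smad4, and OMP Wild-type libraries from mice without Cre. The AP2e line had the same 3 groups with AP2eCre+/−, which lies at Tfap2e and leaves both Omp copies intact. The labels call the controls without Cre Wild Type, whereas the study describes the controls without Cre as Smad4flox/flox mice, and the groups carry their label here. Smad4 is the mediator shared by TGFβ and BMP signaling, which the study removed with OMPCre in mature apical and basal vomeronasal sensory neurons (VSNs) and with AP2eCre in immature basal VSNs. The sources used here do not describe the structure of the OMPCre allele, and the labels call each library a biological replicate.

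In mature VSNs, pheromone receptors at the microvilli act through the G proteins Gαi2 (Gnai2, apical neurons) or Gαo (Gnao1, basal neurons) and open the cation channel Trpc2. OMP is present in these neurons and in the sensory neurons of the main olfactory epithelium, which use Gnal, Adcy3 and cyclic nucleotide-gated channels instead. OMP takes part in the speed and the recovery of the odor response, with roles in cyclic nucleotide and calcium handling. The labels name VSN populations as the cell type, but the tissue sequenced was the complete VNO. In OMP Wild-type libraries Trpc2 had 85.1 to 138 CPM (counts per 1000000 after TMM normalization), and 5 gland and odorant-binding genes together had 57972 to 159833 CPM. In whole-organ RNA, fewer mature neurons and less Omp RNA per neuron cannot be told apart.

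Omp (ENSMUSG00000074006.3) lies on chromosome 7 of GRCm38 from 98143359 to 98145502, on the minus strand, inside Capn5 (98121559 to 98178274), which is on the same strand. It has 1 annotated transcript with 1 exon of 2144 bases. The coding part spans 98144927 to 98145418 and holds 492 bases with the stop codon, or 163 residues. The 5′ UTR has 84 bases and the 3′ UTR 1568 bases, so that 77.1% of the counted transcript is UTR. No other transcript of the deposited set shared a run of 31 bases with it. The first 300 bases of the coding part (chr7:98145119-98145418, minus strand) identify the transcript and are shown 5′ to 3′ on the gene's strand, with the start codon in capitals.

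Omp coding sequence, first 300 bases: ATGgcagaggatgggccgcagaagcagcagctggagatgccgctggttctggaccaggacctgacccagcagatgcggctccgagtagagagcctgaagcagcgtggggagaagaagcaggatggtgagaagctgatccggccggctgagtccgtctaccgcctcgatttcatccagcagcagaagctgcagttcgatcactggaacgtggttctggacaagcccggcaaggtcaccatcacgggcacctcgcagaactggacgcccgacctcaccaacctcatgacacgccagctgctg

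The deposited files give 1 count for the whole transcript. Reads from Omp UTRs that an OMPCre allele may keep would be counted as Omp, and the 2 alleles cannot be told apart in these counts. Omp had between 14293 and 62902 counts per library, for which counting error alone is 0.836% at most. Library totals ranged from 43385516 to 134042284 estimated counts. The spread between libraries was therefore far above counting error in these comparisons.

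By CPM, Omp was lower in all 6 OMPCre carriers (288 CPM at most) than in any of the 12 libraries with both copies intact (292 CPM at least). How many other genes divide these libraries in the same way was not counted. The OMP Wild-type libraries had 410, 306 and 475 CPM. The OMP Het libraries had 248, 238 and 224 CPM, and the OMP cKO libraries 253, 238 and 288 CPM. All 6 carriers lay below the lowest Wild-type library, and the OMP Het and OMP cKO libraries overlapped. The carriers were also closer to each other, with an SD of 21.8 CPM (n = 6) against 85.3 CPM in OMP Wild-type (n = 3), where replicate 2 was low and replicate 3 high. In the AP2e line, the Wild-type libraries had 396, 443 and 472 CPM. The AP2e Het libraries had 292, 435 and 445 CPM, and the AP2e cKO libraries 463, 450 and 550 CPM. AP2e Wild-type overlapped with both AP2e carrier groups, and replicate 1 of AP2e Het was the lowest library with both copies intact. The AP2e cKO libraries all lay above the AP2e Het libraries. Between these groups 15.1% of the genes tested did not overlap, in either direction.

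**Figure D1:**
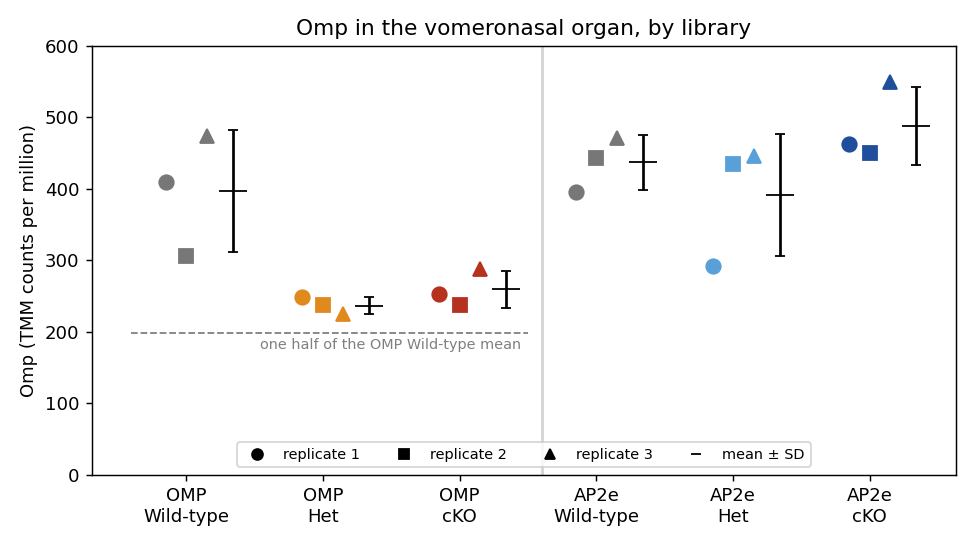
Omp in each of the 18 libraries in CPM on a linear axis from 0, by group, with a symbol per replicate number and the mean ± SD (n = 3) beside each group. The 6 OMP Het and OMP cKO libraries sit between 224 and 288 CPM, under every other library and above the dashed line at 198 CPM, 50% of the OMP Wild-type mean.

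In order of mean level, the groups were AP2e cKO (488 ± 54.5 CPM, SD, n = 3), AP2e Wild-type (437 ± 38.1 CPM), OMP Wild-type (397 ± 85.3 CPM), AP2e Het (391 ± 85.5 CPM), OMP cKO (259 ± 25.8 CPM) and OMP Het (237 ± 11.7 CPM). Of the 5 pairs of neighbours in this order, only AP2e Het and OMP cKO did not overlap (exact permutation p = 0.1, the smallest that 3 against 3 libraries allow, Benjamini-Hochberg adjusted 0.5). The other 4 pairs had exact permutation p from 0.2 to 0.9 (two-sided). The steepest step of the order was thus between the groups with 2 and with 1 intact copies. On the deposited TPM scale, which is per transcript length and sums to the same total in every library, OMP Wild-type libraries had 134, 126 and 260 TPM. OMP Het libraries had 99.5, 98.1 and 128 TPM, and OMP cKO libraries 98.7, 94.1 and 151 TPM. Carriers and Wild-type overlapped on this scale, and the third replicate of each OMP group was its highest. Carriers reached 151 TPM, and the 12 libraries with both copies intact began at 112 TPM. Among all 35596 genes Omp ranked 405 to 742 by TPM in the 12 libraries with both copies intact, and 680 to 980 in the 6 carriers. In the 6 Wild-type libraries of both lines its mean was 179 ± 55.6 TPM (SD, n = 6), close to Calr4 at 176 ± 54.0 TPM and above Trpc2 at 33.4 ± 11.3 TPM, but below Gnao1 at 382 ± 82.5 TPM.

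Whether the OMPCre allele itself lowers Omp was asked by comparing the 6 carriers with the 3 OMP Wild-type libraries. The carriers had 62.1% of the Wild-type level in the edgeR fit (log2 fold change −0.69, SE 0.13, 95% interval 50.5% to 76.3%). The two-sided exact permutation test gave p = 0.012, the smallest that 6 against 3 libraries allow. Among 18623 genes tested, 239 had all carriers below all Wild-type libraries (1.28%). In the quasi-likelihood test of edgeR the unadjusted p was 0.00057, and Omp ranked 23 by p. After Benjamini-Hochberg adjustment over all genes the p was 0.41, so Omp was not called by edgeR. That fit called 3 genes, 0.0161% of those tested, and 1084 had an unadjusted p under 0.05 (5.82%). DESeq2, the tool of the study's own analysis, called Omp with an adjusted p of 0.00042 among 112 called genes (0.601%). Its adjusted p across alternatives ran from 0.00042 to 1.0, and DESeq2 was the only setting that called Omp, while the fold change stayed below 0 in all of them. Among the 1604 genes with a mean of at least 100 CPM, Omp had the twenty-first lowest fold change.

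Omp was lower in each carrier group. OMP Het had 59.2% of the Wild-type level (log2 fold change −0.76, SE 0.16, 95% interval 46.3% to 75.6%). Its adjusted p was 0.35 by edgeR and 0.00078 by DESeq2, and 0.00078 to 1.0 across alternatives, in a comparison where edgeR called 14 genes (0.0752%) and DESeq2 155 (0.832%). OMP cKO had 65.1% (log2 fold change −0.62, SE 0.16, 95% interval 51.0% to 83.1%). Its adjusted p was 0.89 by edgeR and 0.026 by DESeq2, and 0.026 to 1.0 across alternatives, where edgeR called 1 gene (0.00537%) and DESeq2 79 (0.424%). In both comparisons all 3 carriers lay below all 3 Wild-type libraries (exact permutation p = 0.1, the smallest possible), as did 5.07% of the genes tested for OMP Het and 4.22% for OMP cKO. OMP cKO and OMP Het, which have the same number of intact Omp copies and differ in Smad4 genotype, differed by a log2 fold change of 0.14 (SE 0.15, 95% interval 86.1% to 140%, exact permutation p = 0.2). The 2 groups also differed elsewhere, as in Rps15a-ps8, with 1 to 5 counts in OMP Het and 309 to 824 in OMP cKO. The part of Smad4 in the Omp difference was not tested. When OMP cKO was compared with Wild-type and Het libraries together, the log2 fold change was −0.29 (SE 0.25, 95% interval 55.7% to 120%, exact permutation p = 0.45). That pooling puts libraries with 1 and with 2 intact copies into 1 control group.

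**Figure D2:**
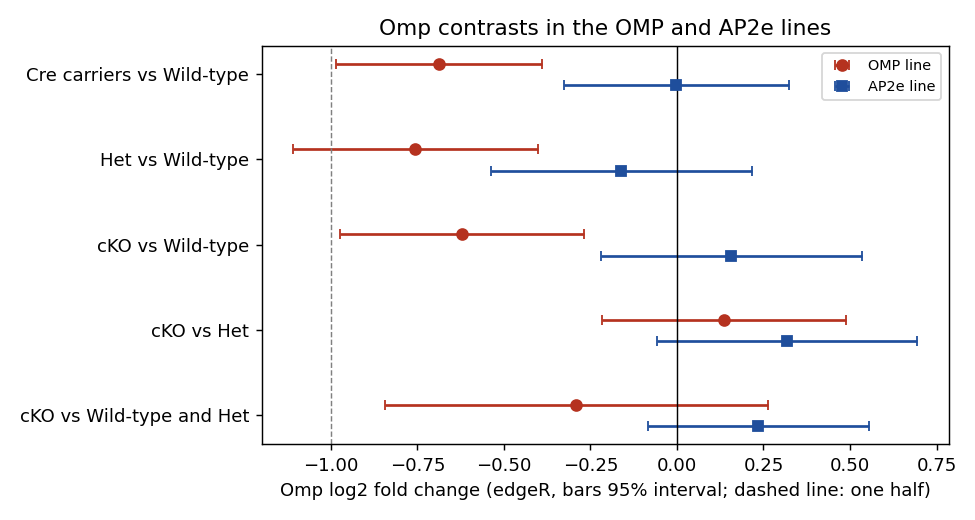
Log2 fold changes of Omp from the edgeR fits with their 95% intervals, for the 5 comparisons in the OMP line (circles) and the AP2e line (squares). In the OMP line the 3 comparisons of carriers with Wild-type lie between −0.76 and −0.62 with intervals below 0, and the intervals of all 5 AP2e comparisons cross 0.

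Library names fall into 2 series, a letter with a number or the name of the line with a number, whose meaning the sources do not give. Within the first, 4 OMPCre carriers had a mean of 244 CPM and 2 OMP Wild-type libraries 358 CPM, or 68.2%. Within the second, 2 carriers had 256 CPM and the 1 Wild-type library 475 CPM, or 54.0%. The lower level of carriers was therefore present within both series, with 1 Wild-type library in the second.

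In the AP2e line, where Cre does not lie in Omp, carriers had 99.9% of the Wild-type level (SE of the log2 fold change 0.14, 95% interval 79.7% to 125%, exact permutation p = 0.95). In that comparison edgeR called 16 of 18495 genes (0.0865%) and DESeq2 133 (0.719%). AP2e Het had 89.5% (95% interval 68.9% to 116%) and AP2e cKO 112% (85.9% to 145%). AP2e cKO against AP2e Het gave a log2 fold change of 0.32 (SE 0.17, 95% interval 96.0% to 162%, exact permutation p = 0.1, the smallest possible). These groups did not overlap in Omp, nor in 15.1% of all genes tested. With a library left out the log2 fold change of Omp in AP2e cKO against AP2e Het ran from 0.15 to 0.42. The edgeR adjusted p of Omp in AP2e cKO against AP2e Het was 0.58. Wild-type libraries of both lines differed by a log2 fold change of −0.14 (OMP against AP2e, SE 0.17, exact permutation p = 0.7). The difference between the carrier effects of the lines was tested itself. It was −0.67 on the log2 scale in edgeR (SE 0.20, 95% interval −1.11 to −0.24), with an unadjusted p of 0.0047 and an adjusted p of 0.65 over 19465 genes, of which 3 were called (0.0154%). DESeq2 gave an adjusted p of 0.12, with 85 genes called (0.437%). For Omp as a single value, a two-sided exact permutation of the genotype labels within each line, a test added after seeing the data, gave p = 0.034 over 7056 splits.

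The gene that carries the other Cre allele, Tfap2e, was looked up as well, chosen after its values were seen. Tfap2e encodes AP-2ε, a transcription factor of basal VSNs. It had 15.4, 14.0 and 16.6 CPM in AP2e Wild-type libraries. It had 5.42, 8.18 and 8.88 CPM in AP2e Het, and 11.2, 10.0 and 12.5 CPM in AP2e cKO. All 6 AP2eCre carriers were below the 3 Wild-type libraries, as were those of 1.37% of the genes tested, with a log2 fold change of −0.74 (SE 0.16, edgeR adjusted p = 0.29, DESeq2 adjusted p = 0.0076, range 0.0076 to 0.93). In the OMP line its log2 fold change in carriers was −0.03 (SE 0.10). Of the 10 transduction genes of VSNs, 3 were higher and 7 lower in AP2eCre carriers, with a median log2 fold change of −0.06, none called by edgeR and 1 by DESeq2, beside 0.719% of all genes. That gene, Calr4, had 103 to 195 CPM in the 6 carriers and 237 to 259 CPM in AP2e Wild-type, which did not overlap (log2 fold change −0.65, SE 0.16, edgeR adjusted p = 0.53). Gnao1, of basal VSNs, had 135 to 210 CPM in carriers and 205 to 244 CPM in Wild-type, which overlapped (−0.31, SE 0.12, edgeR adjusted p = 0.84, called by neither tool). Fewer basal neurons and less Tfap2e RNA per neuron cannot be told apart in these values.

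With 1 of 2 copies intact, 50% of the Wild-type level is the value to compare with. All 6 carriers lay above 50% of the OMP Wild-type mean, which is 198 CPM. On the log2 scale carriers exceeded 50% of Wild-type by 0.34 (two-sided exact permutation p = 0.024). The edgeR interval of all carriers began at 50.5%, and that of OMP Het, from 46.3%, included 50%. This difference rested on the OMP Wild-type libraries, in alternatives added after seeing the data. Without their replicate 2, the lowest one, it was 0.16 (exact permutation p = 0.14), without replicate 1 it was 0.38 (p = 0.071 by the exact permutation test), and with deposited TPM it was 0.42 (exact permutation p = 0.18).

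Omp was then set against genes of the same neurons, since whole organs can differ in their share of VSNs. The reference was the mean log2(CPM + 1) of 10 vomeronasal transduction genes, among them Trpc2, Gnai2, Gnao1 and the chloride channel gene Ano1. Omp exceeded this mean by 2.36, 2.15 and 2.54 in OMP Wild-type libraries. It exceeded it by 1.57, 1.53 and 1.54 in OMP Het and by 1.74, 1.64 and 1.89 in OMP cKO. The carriers did not overlap with Wild-type, and the difference was −0.70 on the log2 scale, or 61.5% (two-sided exact permutation p = 0.012, the smallest possible). With the 8 synaptic and cytoskeletal genes that had a mean of at least 1 CPM as the reference it was −0.73. In the AP2e line the same measure differed by 0.12 (exact permutation p = 0.36), with 2.16 to 2.61 in Wild-type and 2.27 to 2.72 in carriers. Replicate 1 of AP2e Het, the library with the lowest Trpc2 (49.9 CPM), had 2.27 and lay within the range of the other libraries with both copies.

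**Figure D3:**
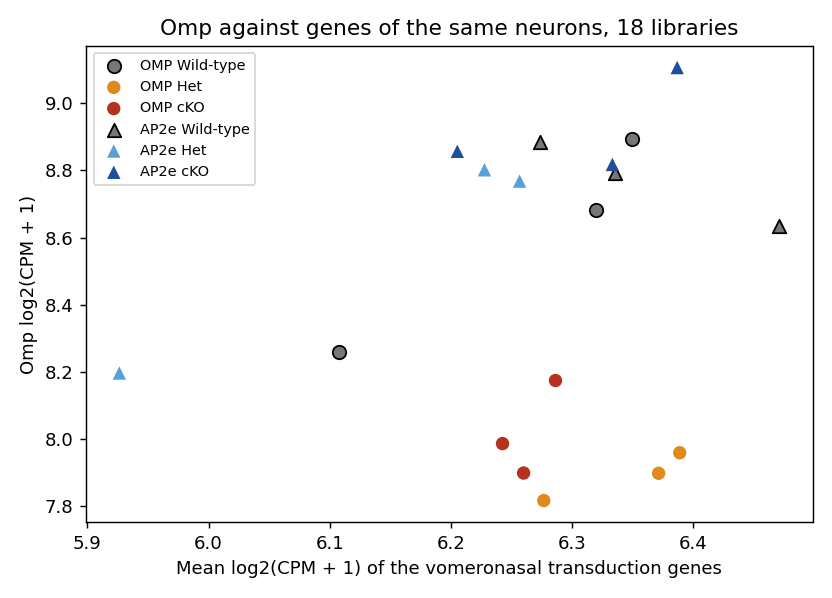
Omp as log2(CPM + 1) against the mean log2(CPM + 1) of the 10 vomeronasal transduction genes, 1 point per library, circles for the OMP line and triangles for the AP2e line, with black edges for Wild-type. The 6 OMPCre carriers form a band under the other 12 libraries at the same level of transduction genes, and OMP Wild-type replicate 2 and AP2e Het replicate 1 are low on both axes.

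Other genes of the mature VSN lay on both sides of 0. Of the 10 transduction genes, 6 were higher and 4 lower in OMPCre carriers than in Wild-type. None was called by edgeR (0.0161% of all genes were) or DESeq2 (0.601%), and none had an unadjusted edgeR p under 0.05 (5.82% of all genes). At those shares a list of 10 genes would seldom hold a called one. Their median log2 fold change was 0.07, beside −0.01 over all genes tested. Gnai2 had 359 ± 17.6 CPM in OMP Wild-type, 366 ± 17.5 CPM in Het and 412 ± 39.5 CPM in cKO (log2 fold change of carriers 0.10, 95% interval −0.09 to 0.30). Gnao1 had 220 ± 24.7 CPM in OMP Wild-type, 225 ± 20.1 CPM in Het and 230 ± 12.2 CPM in cKO (0.04, −0.18 to 0.25). Calr4, a calreticulin of vomeronasal neurons, had −0.06 (−0.27 to 0.15) and Ano1 −0.06 (−0.26 to 0.14). The intervals of these 4 genes do not reach the value of Omp.

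Of 10 synaptic and cytoskeletal genes of mature neurons, 6 were higher and 4 lower, with a median of 0.06. None was called by edgeR or DESeq2, beside 0.0161% and 0.601% of all genes, and 1 was lower at an unadjusted p under 0.05 (3.65% of all genes). Vamp2, which encodes a synaptic vesicle SNARE protein, had a log2 fold change of 0.11 (95% interval −0.06 to 0.28) and the vesicle protein gene Syp 0.05 (−0.19 to 0.30). Of 10 genes of progenitors and immature neurons, among them Gap43 and Stmn2, 6 were higher and 4 lower with a median of 0.05. None was called by either tool, beside the same shares of all genes, and 1 was higher at an unadjusted p under 0.05 (2.17% of all genes). Of 9 genes for OMP partners and calcium extrusion, which include the Bex genes, the sodium-calcium exchanger Slc8a1 and the plasma membrane calcium pump Atp2b1, 8 were higher and 1 lower with a median of 0.09. None of them was called by edgeR (0.0161% of all genes were) or DESeq2 (0.601%), and 1 was higher at an unadjusted p under 0.05 (2.17% of all genes). Slc8a1 and Atp2b1 had log2 fold changes of 0.09 and 0.03. In AP2eCre carriers the medians were −0.06 for transduction, −0.18 for synaptic and 0.18 for immature neuron genes.

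**Figure D4:**
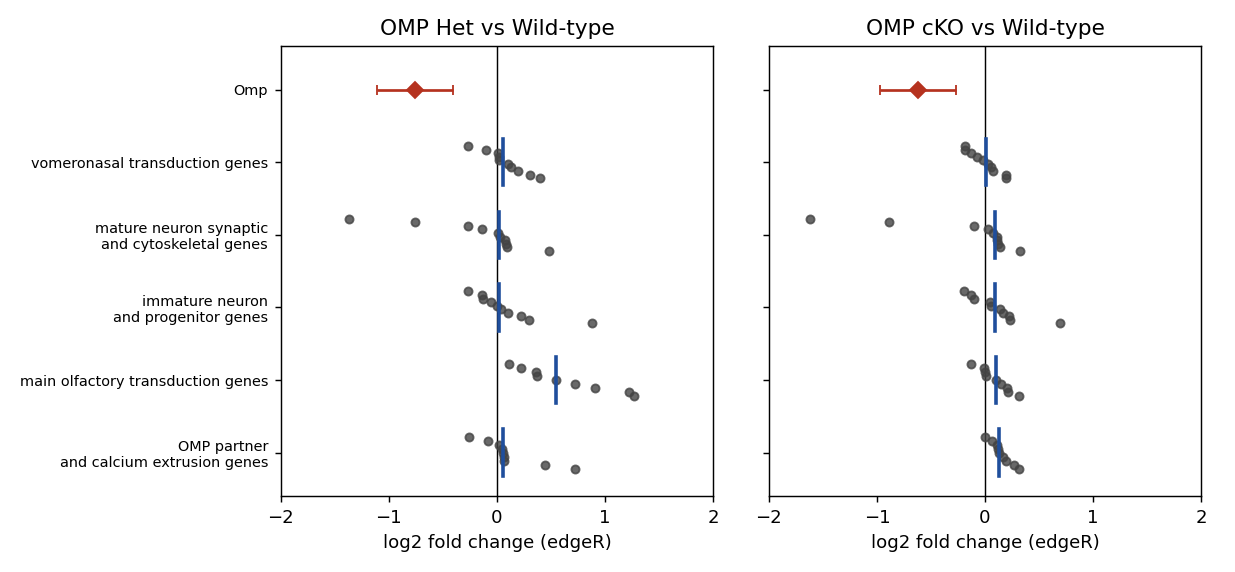
Log2 fold changes (edgeR) in OMP Het and OMP cKO against OMP Wild-type for Omp (diamond with its 95% interval) and for the genes of 5 lists (points), with a blue bar at each list's median. Omp is at −0.76 and −0.62, the VSN lists centre near 0 in both panels, and main olfactory genes are shifted to the right in OMP Het.

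Markers of main olfactory sensory neurons, which also express Omp, had higher summed levels in OMP Het than in any OMP Wild-type library. The 9 genes of this list together had 435 to 509 CPM in OMP Wild-type, 644 to 685 CPM in OMP Het and 509 to 563 CPM in OMP cKO. The lowest OMP cKO sum (509.5 CPM) was next to the highest OMP Wild-type sum (508.9 CPM). All 9 were higher in OMP Het than in Wild-type, 7 with an unadjusted p under 0.05 (2.51% of all genes were higher at that p), with a median log2 fold change of 0.54. None was called by edgeR, and DESeq2 called 2 of 9 higher, beside 0.489% of all genes. Gnal, the G protein of the main olfactory response, had 51.4, 40.6 and 24.8 CPM in Wild-type and 89.2, 90.6 and 104 CPM in Het. In cKO it had 33.6, 34.5 and 48.5 CPM, so that the Het libraries stood above all others of the line. Its log2 fold change in Het was 1.27 (SE 0.25, edgeR adjusted p = 0.32, DESeq2 adjusted p = 7.2e-05, range 7.2e-05 to 0.35). Adcy3, the adenylyl cyclase of the same pathway, had a log2 fold change of 0.54 in Het (SE 0.16, edgeR adjusted p = 0.65), while the receptor chaperone genes Rtp1 and Rtp2 had 0.12 and 0.22. In OMP cKO the list had a median of 0.10, with 7 genes higher and 2 lower, and 0 with an unadjusted p under 0.05. In the AP2e line, with both Omp copies intact, the sums were 548 to 608 CPM in Wild-type. They were 536 to 690 CPM in AP2e Het and 651 to 735 CPM in AP2e cKO. The part of main olfactory RNA in the Omp level was not tested.

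The lists of other cell types had no called gene by edgeR in OMPCre carriers, where it called only 0.0161% of all genes. The median log2 fold change was 0.37 for 5 sustentacular genes, −0.20 for 5 gland and odorant-binding genes, −0.16 for 6 glial genes, −0.11 for 5 endothelial genes, −0.19 for 5 ciliated respiratory genes and −0.14 for 6 immune and blood genes. In OMP Het the sustentacular median was 0.70, and DESeq2 called 1 of these 5 genes higher, beside 0.489% of all genes. No gene of any of these lists was at 0 in a library of the OMP line, and their part in the Omp level was not tested.

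The study connected the level of OMP with the adhesion gene Tenm2, and also measured Unc13c, a regulator of transmitter release. These genes were chosen by the study on these samples and are not independent evidence of a direction. Neither was called by edgeR in an OMP-line comparison with Wild-type, where it called 0.00537% to 0.0752% of all genes. DESeq2 called both in OMP cKO, beside 0.424% of all genes, and neither in OMP Het, beside 0.832% of all genes. Tenm2, which encodes the adhesion protein teneurin-2, had 67.8, 63.0 and 92.2 CPM in OMP Wild-type and 79.9, 76.1 and 72.2 CPM in OMP Het. It had 124, 111 and 123 CPM in OMP cKO, above all other libraries of the line. The sign in Het depended on the counts and libraries used. Its log2 fold change was 0.02 in Het (SE 0.14) and 0.68 in cKO (SE 0.14, edgeR adjusted p = 0.63, DESeq2 adjusted p = 0.0028, range 0.0028 to 1.0). Unc13c had 2.70 to 4.34 CPM in OMP Wild-type, 3.63 to 5.04 CPM in OMP Het and 10.5 to 15.4 CPM in OMP cKO. Its log2 fold change was 0.20 in Het (SE 0.23) and 1.80 in cKO (SE 0.24, edgeR adjusted p = 0.14). Unc13c was also higher in the AP2e line, where both Omp copies are intact. It had 2.42 to 2.73 CPM in AP2e Wild-type, 3.02 to 4.38 CPM in AP2e Het and 9.08 to 12.2 CPM in AP2e cKO. Tenm2 had 73.7 to 80.7 CPM in AP2e Wild-type, 53.4 to 82.9 CPM in AP2e Het and 82.0 to 112 CPM in AP2e cKO.

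Across libraries, Omp was related to the mean log2(CPM + 1) of each neuron list. Omp was lower by CPM with 1 intact copy (288 CPM at most) than with 2 (292 CPM at least). To keep that difference out of r, r was computed within each of these 2 sets of libraries, for 10 relations in all. Over the 12 libraries with both copies, Omp correlated with the synaptic list (Pearson r = 0.83, permutation p = 0.0023, adjusted 0.020, Spearman rho = 0.58, permutation p = 0.052). With the immature neuron list r was 0.78 (permutation p = 0.0040, adjusted 0.020, rho = 0.50, p = 0.099) and with the transduction list 0.72 (permutation p = 0.011, adjusted 0.038, rho = 0.43, p = 0.16). No rho passed the adjustment (lowest adjusted permutation p = 0.37). Without the 2 libraries farthest from the median, AP2e Het replicate 1 and OMP Wild-type replicate 2, r was 0.25 for the synaptic and −0.10 for the transduction list, so these relations rest on those libraries. For the immature neuron list r was still 0.57 over 10 libraries, no longer past the threshold. Centred on line and library series (11 libraries), r was 0.86, 0.79 and 0.89 for the synaptic, transduction and immature neuron lists. The partner list had r = 0.63 (permutation p = 0.027, adjusted 0.067, rho = 0.49) and the main olfactory list 0.41 (permutation p = 0.18, rho = 0.36). Over the 6 carriers r ranged from −0.41 to 0.68, and the lowest exact permutation p of r was 0.186. A relation of Omp to other neuron genes was not detectable among the carriers.

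The genes whose pattern was most like that of Omp over the 12 libraries with both copies were sought among 12926 other genes with a mean of at least 5 CPM, by Pearson r of log2(CPM + 1), as a description. The first 10 were Cacna1b (r = 0.97), Agap1 (0.95), Ctnnd2 (0.95), Rtl6 (0.94), Sult4a1 (0.94), Mapk8ip2 (0.94), Tenm2 (0.94), Ess2 (0.94), Cd2bp2 (0.94) and Amigo1 (0.94). Of these genes, 339 had an r above 0.8. Cacna1b encodes a presynaptic calcium channel subunit, Ctnnd2 a neuronal catenin and Amigo1 a neuronal adhesion protein. Their log2 fold changes in OMPCre carriers against Wild-type ran from 0.04 for Agap1 to 0.35 for Tenm2, beside −0.69 for Omp. The OMP Wild-type libraries served both to choose these genes and as the baseline of this comparison. Genes low in OMP Wild-type replicate 2, as Omp was, are favoured by that choice, so no conclusion is drawn from their direction. Over the 6 carriers, their r with Omp ranged from 0.04 for Cd2bp2 to 0.79 for Rtl6.

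Genes near Omp were examined next. Of 35 annotated genes within 1000000 bases, 24 passed the filter, 10 were higher and 14 lower in OMPCre carriers, and none was called by edgeR. At an unadjusted p under 0.05 there were 2 of 24 (8.33%, beside 5.82% of all genes), and the median log2 fold change was −0.02. Capn5, a calcium-dependent protease gene whose interval contains Omp, had 33.2, 33.9 and 33.7 CPM in OMP Wild-type, 32.8, 26.7 and 29.9 CPM in Het and 29.5, 27.7 and 31.7 CPM in cKO. All 6 carriers lay below the 3 Wild-type libraries, by a log2 fold change of −0.18 (SE 0.08, unadjusted p = 0.049, edgeR adjusted p = 0.86). Myo7a, which encodes the unconventional myosin VIIa, starts 23835 bases from Omp. It had 7.01, 6.07 and 4.13 CPM in Wild-type, 13.3, 11.3 and 13.9 CPM in Het, and 4.76, 5.81 and 4.73 CPM in cKO. Only the Het libraries stood apart, like those of Gnal, with a log2 fold change of 1.15 (SE 0.21, edgeR adjusted p = 0.22, DESeq2 adjusted p = 0.00021, range 0.00021 to 1.0). The next genes, B3gnt6 and Acer3, had log2 fold changes in carriers of −0.16 and −0.12.

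**Figure D5:**
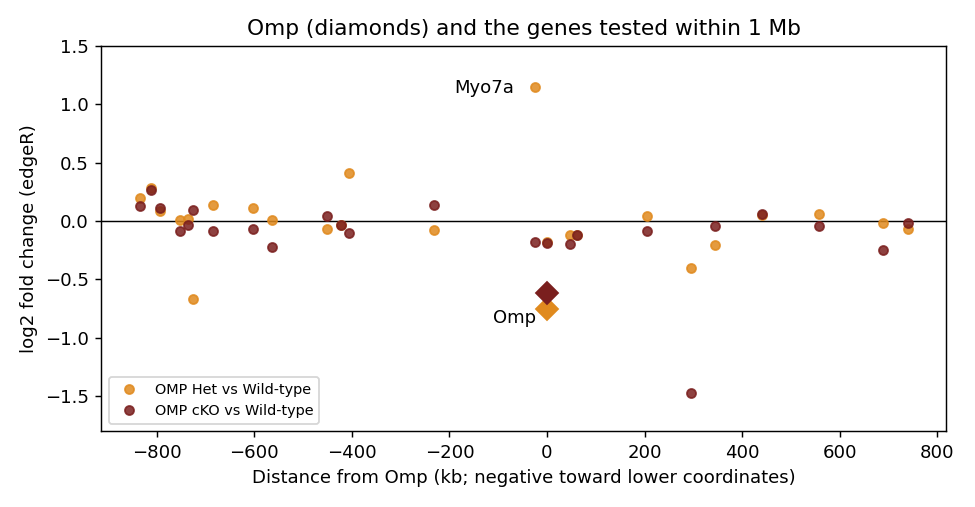
Log2 fold changes (edgeR) of the 24 tested genes within 1 Mb of Omp in OMP Het and OMP cKO against OMP Wild-type, by distance from Omp in kb, with Omp itself as diamonds at 0. Omp is the lowest point in OMP Het, and in OMP cKO the lowest but for the low-count gene Gucy2d at −1.47, and Myo7a at 1.15 is the highest point in OMP Het.

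The 3 genes that edgeR called in OMPCre carriers lie on other chromosomes and are annotated as processed pseudogenes, whose reads may be shared with near-identical copies, so the source of their reads is uncertain. Gm14121 (chromosome 2, 150499466 to 150500845) had 134 to 303 counts in the 6 carriers, 0 to 2 in OMP Wild-type and 0 to 3 in the AP2e groups (edgeR adjusted p = 0.013). Gm5802 (chromosome 14, 62540493 to 62541193) had 52 to 80 counts in the 6 carriers, 0 to 1 in OMP Wild-type and 0 in every AP2e library (edgeR adjusted p = 0.042). Both were thus well detected in all 6 libraries labelled as OMPCre carriers, the libraries in which Omp was lowest by CPM. Rps15a-ps8 (chromosome 4, 53791070 to 53791456) had 1 to 5 counts in OMP Het, 309 to 824 in OMP cKO and 615 to 899 in OMP Wild-type (edgeR adjusted p = 0.013 for carriers). With 1 library left out, edgeR no longer called Gm5802 in any of the 9 fits (adjusted p = 0.052 to 0.16), nor Gm14121 without OMP cKO replicate 1 or 3 (adjusted p = 0.066 and 0.074). As a check of the other allele, Smad4 had 64.9 to 78.9 CPM in OMP Wild-type, 76.3 to 83.8 CPM in OMP Het and 54.6 to 62.4 CPM in OMP cKO, below all OMP controls.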

How the data were processed

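PolyA+ RNA of whole VNOs was made into directional libraries and sequenced as single reads of 75 cycles. Per the labels and the study's methods, the authors quantified reads with Salmon 0.14.0 on mm10 (GRCm38) and used DESeq2 1.22.2. The methods name a CDS assembly, but the deposited Omp length includes its UTRs. The deposited expected counts (estimated reads per transcript, not normalized) and the deposited TPM, which the authors' tool scales to 1000000 per library, were used. Of 116248 transcripts, 116072 matched GENCODE vM21 and gave 35596 genes, and 176 unmatched transcripts held up to 0.0324% of the counts. Counts were summed per gene and rounded. 

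Main tests were edgeR 4.0.16 quasi-likelihood fits (R 4.3.3) with TMM, filterByExpr and Benjamini-Hochberg adjustment, on the 9 libraries of a line or, between lines, on all 18. Called genes have an adjusted p below 0.05, two-sided. Single values were compared by exact permutation on log2(CPM + 1). Correlations used 100000 resamples, or all orders for 6 libraries. Alternatives used DESeq2 1.42.0, limma 3.58.1 on log2(TPM + 1), other filters and counts, the library series, the replicate block and each library left out. Scores are means of log2(CPM + 1) over list genes with a mean of at least 1 CPM. On simulated counts in which 200 genes had a true log2 fold change of 1, the test recovered 60.0% with 11 false calls in the OMP design and 66.5% with 6 in the AP2e design. Scripts used Python 3.11.15, numpy 2.4.6, pandas 2.3.3, scipy 1.17.1 and matplotlib 3.10.9.

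Omp, the gene lists and the tests were chosen with earlier results of these data known. Named genes were Omp, list genes called or among the 4 of highest mean CPM in their list, genes within 1000000 bases of Omp that were tested, the 10 genes most like Omp, and the called genes. Trpc2, Gap43 and the Bex genes are named as markers, and Tfap2e and Smad4 as the other altered genes, outside this rule. One AP2e library, titled as a heterozygote and labelled with a cKO genotype, had no group and entered only 1 alternative. Replicates are labelled biological, and which animals they came from is not given in the sources used here. One gene of the lists is not reported here.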

Additional observations from a re-analysis of the deposited data

Results flagged for a closer look

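The effect of the Cre allele on Omp differed between the lines when the genotype labels were permuted within each line. The difference of the differences in mean log2(CPM + 1) was −0.64, OMP line against AP2e line, with an exact permutation p of 0.034, and the adjusted p of the edgeR test over all genes was 0.65. All 6 OMPCre carriers were below the OMP Wild-type libraries, and 1 of 6 AP2eCre carriers was below all AP2e Wild-type libraries. Rps15a-ps8, a ribosomal protein pseudogene, also had carrier effects that differed between the lines, by −3.83 on the log2 scale (edgeR adjusted p = 0.034), with 1 to 5 counts in the 3 OMP Het libraries, 309 to 824 counts in the 3 OMP cKO libraries, 615 to 899 counts in OMP Wild-type and 231 to 2325 counts in the 9 AP2e libraries. The low counts were thus those of OMP Het and not of OMP cKO, which carries the same Cre allele.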

How the results depend on the processing

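Of 800 alternative values for 77 results, 716 kept their direction and side of the threshold, 25 reversed, 22 weakened, 15 became stronger and 22 counts or values moved; the causes were not tested unless stated. Omp in OMPCre carriers was called by DESeq2 alone, at log2 fold changes of −0.68 (carriers), −0.75 (Het) and −0.62 (cKO). Exact permutation within lines, added after seeing the data, gave −0.64 for the difference between lines.

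Genes called in OMPCre carriers numbered 3, and 112 by DESeq2, 5 with at least 1 count in total, 0 with at least 10 counts in every library (fewer genes tested), and 1 to 6 with a library left out. In AP2eCre carriers they numbered 16, and 133 by DESeq2, 4 by limma on TPM, 5 with length-scaled counts, 36 with all 18 libraries in the fit, and 2 to 26 with a library left out (26 without AP2e Het replicate 1).

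Omp in AP2eCre carriers, near 0, reversed to 0.00066 with at least 10 counts, 0.14 with TPM, 0.024 with length-scaled counts, 0.00020 with the library series and 0.0069 with the conflicting library added, and ran from −0.076 to 0.078 with a library left out. AP2e Het ran from −0.27 to 0.0024 (without its replicate 1), and Wild-type between lines from −0.29 to 0.015 (without OMP Wild-type replicate 2). The excess over 50% of Wild-type was 0.42 with TPM and 0.16 to 0.48 with a library left out, not past the threshold without OMP Wild-type replicate 1 or 2.

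Without the 2 farthest libraries, r with 2 copies was −0.10 for transduction, 0.25 for synaptic, 0.57 for immature and 0.32 for partner genes, and with 1 copy −0.99 for synaptic and 0.23 for immature genes (4 libraries). Centred on line and series, main olfactory r was 0.67. DESeq2 called 1 study-linked gene in OMPCre carriers (0.601% of all genes), and 1 of 10 transduction and 2 of 5 gland genes in AP2eCre carriers (0.719%).

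Gnao1 reversed to −0.023 with length-scaled counts and ran from −0.058 to 0.093 with a library left out, Calr4 from −0.13 to 0.055, Ano1 from −0.11 to 0.032 (0.070 with TPM) and Syp from −0.076 to 0.17. Tenm2 in OMP Het was −0.056 with length-scaled counts and −0.087 to 0.22 with a library left out.

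Same-numbered OMP libraries correlated by 0.022 to 0.52 (mean 0.24), against a mean of −0.12 for unlike numbers. Of 9 OMP libraries, 7 matched best with their own number, and 1 of 9 did in the AP2e line. Not all same-numbered values were over 0.1, so the main fits did not pair libraries, although the OMP numbers may carry some shared structure. The exact permutation tests also ignored the numbers. With the replicate block, Omp in OMPCre carriers was −0.67 (edgeR adjusted p = 0.29), and genes called were 3 in OMPCre and 3 in AP2eCre carriers.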

Other observations

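The library with conflicting labels in the AP2e line had 411 CPM of Omp when all 19 libraries were normalized together, 208 TPM and 20735 counts. Its Tfap2e level was 6.80 CPM. The Omp value lay within the range of the 3 AP2e Wild-type libraries, and Tfap2e lay with the AP2eCre carriers. The library was counted in neither carrier group.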
